A study of Mus musculus with 6 samples.

Results

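Collagen genes were described in the hearts of mice that had lost Mrps5, a protein of the mitochondrial ribosome, in their cardiomyocytes. A gene was taken as a collagen gene when its biotype in the deposited expression table was protein coding and its symbol was made of Col, digits, a and digits and nothing else. This gave 44 of the 54532 genes of the table, of which 11 encode chains of fibrillar collagens and 33 encode chains of other collagens, 6 of them of type IV. Collagens are triple helices of 3 chains, drawn from 1 gene or from several, which are modified and folded in the endoplasmic reticulum and assembled outside the cell. Fibrillar collagens (types I, III and V in the heart) form the fibers of the interstitial matrix and are made mainly by fibroblasts, while type IV collagen forms the sheet-like network of basement membranes around cardiomyocytes and vessels. Remaining collagens bind to fibrils, form beaded filaments, hexagonal networks or anchoring fibrils, or span the cell membrane.

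RNA was sequenced from heart tissue, ventricular by the study's methods, of 3 control mice (Ctrl), which carried the genotype Mrps5 fl/fl, and of 3 conditional knockout mice (cKO), which carried Mrps5 fl/fl and MCM. MCM is the αMHC-MerCreMer transgene, in which a promoter active in cardiomyocytes drives a Cre recombinase that works once tamoxifen is given, so the non-myocytes of the heart should have kept their Mrps5. Mice of both groups received tamoxifen into the peritoneum at 45 mg/kg/day for 5 days at 8 weeks of age. RNA was taken 12 weeks after the injections. The study's methods instead give the mice an age of 12 weeks at harvest, which conflicts with these times, and the sample labels were followed. No group had Cre with intact Mrps5, so in these hearts the loss of Mrps5 and the presence of an activated Cre cannot be told apart. Values are FPKM, fragments per kilobase of gene, scaled for library size, and between 15989322 and 24875499 reads per heart stood behind them. Mrps5 itself was at 5.20, 6.45 and 6.34 FPKM in Ctrl and 1.12, 1.23 and 1.31 FPKM in cKO, a mean of 20.4% of the control level (log2 fold change -1.65 ± 0.09 SE, adjusted p = 0.000202, limma).

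Of the 6 hearts, 3 stood apart from the others, Ctrl replicate 1 and cKO replicate 3 by atrial markers and cKO replicate 2 by Xist. Ctrl replicate 1 held 678.6 FPKM of Myl7, an atrial myosin light chain, against 98.6 and 18.2 FPKM in the other Ctrl hearts, and the cKO hearts held 71.8, 169.7 and 495.0 FPKM. cKO replicate 2 held 10.7 FPKM of Xist and no read of Uty, Kdm5d, Ddx3y and Eif2s3y, which lie on the Y chromosome, whereas the other hearts had at most 0.127 FPKM of Xist, although the study's methods describe male mice. Collagen genes and the lists of other genes were therefore also tested without Ctrl replicate 1 and cKO replicate 2, and without Ctrl replicate 1 and cKO replicate 3, both chosen after seeing the data and each leaving 2 hearts a group. The study's methods call the controls littermates. No source says which hearts shared a litter or a day, so p-values measure the spread between these 6 hearts.

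Together the 44 collagen genes summed to 162.7, 168.8 and 210.1 FPKM in Ctrl and to 319.1, 346.8 and 237.6 FPKM in cKO. Every cKO heart lay above every Ctrl heart, and the mean was 180.5 ± 25.8 FPKM in Ctrl and 301.2 ± 56.8 FPKM in cKO (SD, n = 3), a ratio of 1.67. As a share of all reads, collagen genes took 0.114% to 0.151% in Ctrl and 0.189% to 0.279% in cKO. In whole tissue, more cells of a collagen-producing type and more collagen RNA per cell cannot be told apart, and this holds for every difference given here.

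Of the 44 genes, 18 reached a mean of 0.5 FPKM over the 6 hearts and were tested with limma on log2(FPKM + 1), with p-values adjusted over all 12944 genes that passed the same filter and a threshold of 0.05. The filter lay between Col4a4, the lowest tested member with a mean of 0.613 FPKM, and Col6a6, the highest one left out, with a mean of 0.484 FPKM. Col4a4 passed through its level in Ctrl alone, where its mean was 0.876 FPKM against 0.351 FPKM in cKO. In all, 10 genes were higher in cKO, namely Col3a1, Col1a1, Col5a2, Col4a1, Col4a2, Col4a5, Col6a2, Col6a3, Col8a1 and Col15a1, and 1 gene, Col4a4, was lower. Among all genes tested, 16.3% were called higher and 17.0% were called lower. The median log2 fold change of the 18 collagen genes was 0.48, and that of all 12944 genes was -0.02. In 13 of the 18 every cKO heart lay above every Ctrl heart, and in 1 every cKO heart lay below, against 24.8% and 26.4% of all genes tested. Fibrillar collagens had 3 of 6 tested genes called higher with a median of 0.46, and the other collagens had 7 of 12 called higher and 1 called lower with a median of 0.48. No test was made of the difference between these classes. With no filter on low values 3 of the 10 calls were kept (Col3a1, Col5a2 and Col8a1), where 1598 of 26855 genes were called higher. The 10 calls fell to 4 (Col3a1, Col8a1, Col15a1 and Col4a5) when Ctrl replicate 1 and cKO replicate 2 were both left out, where 10.8% of all genes tested were called higher. Without Ctrl replicate 1 and cKO replicate 3, the hearts highest in atrial markers, 5 were called higher (Col3a1, Col1a1, Col4a2, Col6a3 and, in addition, Col5a1) and 0 lower, where 7.68% and 7.86% of all genes were called. Leaving out Ctrl replicate 1 or Ctrl replicate 2 left 2 calls (Col3a1 and Col8a1), where 1452 of 12923 and 1438 of 12930 genes were called higher. Without cKO replicate 1 there were 4, where 1600 of 12961 genes were called higher. That setting lost Col1a1, Col4a1, Col4a2, Col4a5, Col5a2 and Col6a2. Leaving out Ctrl replicate 3 lost Col4a5 and Col6a2, leaving out cKO replicate 2 lost Col4a1 and Col4a2, and leaving out cKO replicate 3 lost Col4a5.

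**Figure D1:**
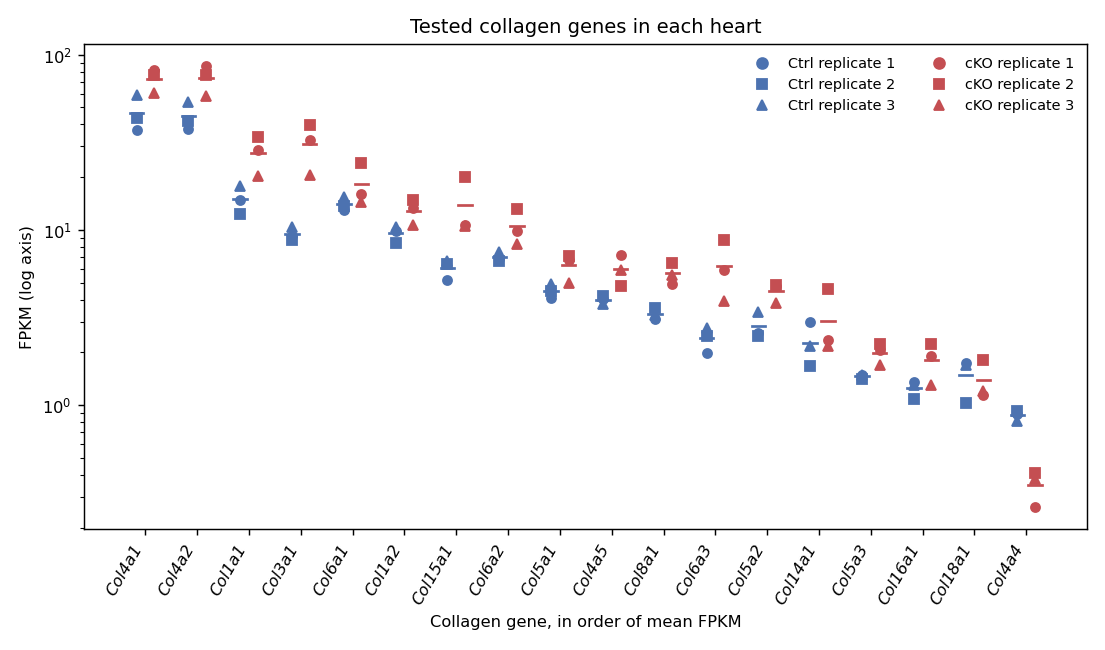
FPKM of the 18 tested collagen genes on a log axis, with a point for each heart (Ctrl blue, cKO red, a symbol for each replicate) and a short line for the mean of each group, ordered by mean FPKM. Col4a1 and Col4a2 lie highest, Col3a1 shows the widest gap between the groups among the genes called higher, and Col4a4 at the right end is the tested gene with all cKO hearts below all Ctrl hearts.

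Col3a1, whose product forms the homotrimer of type III collagen in pliable fibers, had the largest change of the 18 genes. It was at 9.23, 8.72 and 10.3 FPKM in Ctrl hearts, against 32.5, 39.8 and 20.5 FPKM in cKO. The groups did not overlap, and cKO replicate 3 was the lowest cKO heart. The log2 fold change was 1.57 ± 0.22 (SE, adjusted p = 0.00328), and the ratio of mean FPKM was 3.28. The call was kept in all 17 alternatives tried, with log2 fold changes from 1.36 to 1.83. Col3a1 (ENSMUSG00000026043) lies on the plus strand at chr1:45311538-45349706 of GRCm38, tail to tail with Col5a2, another fibrillar gene called higher, with 24614 bases between them. Of its exon bases, 1.44% are shared with the gene Gm47302, and how reads on them were counted was not stated.

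Type I collagen, the main fiber of stiff connective tissue, joins chains of Col1a1 and Col1a2. Col1a1 was at 14.9, 12.4 and 17.7 FPKM in Ctrl hearts, against 28.5, 34.1 and 20.3 FPKM in cKO. All cKO hearts were above all Ctrl hearts, though replicate 3 of each group came close to the other group (log2 fold change 0.82 ± 0.20 SE, adjusted p = 0.0208). Col1a2 was at 9.92, 8.47 and 10.3 FPKM in Ctrl hearts, against 13.3, 14.8 and 10.6 FPKM in cKO. Its groups did not overlap either, but the change was 0.39 ± 0.13 on the log2 scale and missed the threshold (adjusted p = 0.0594). Col1a2 passed the threshold in 4 of the 17 alternatives.

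Type V collagen chains start new fibrils and set their diameter. Col5a2 was at 2.60, 2.47 and 3.40 FPKM in Ctrl hearts, against 4.81, 4.85 and 3.84 FPKM in cKO, with no overlap (log2 fold change 0.53 ± 0.12 SE, adjusted p = 0.0177). Its partners Col5a1 and Col5a3 were near the threshold. Col5a1 had a mean of 4.51 ± 0.40 FPKM in Ctrl and 6.27 ± 1.13 FPKM in cKO (SD, n = 3, log2 fold change 0.39, adjusted p = 0.0552 in limma). Col5a3 had means of 1.46 ± 0.05 and 2.00 ± 0.27 FPKM (SD, n = 3, log2 fold change 0.28, adjusted p = 0.0509 in limma). In all 6 tested fibrillar genes every cKO heart was above every Ctrl heart, and Col5a1, Col5a3 and Col1a2 were all called higher when the recovered read counts were fitted with voom in place of log2(FPKM + 1).

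Type IV genes stand in head-to-head pairs, each pair sharing the stretch of DNA between or across its starts. Col4a1 and Col4a2, whose chains form the network found in all basement membranes, lie on opposite strands of chromosome 8 and overlap by 22 bases at their 5′ ends, and Col4a3 and Col4a4 on chromosome 1 have 71 bases between their starts. Reads on those 22 bases could not be assigned to 1 gene without strand, and strand use was not stated. Col4a5 and Col4a6 on the X chromosome have 1308 bases between them. The promoter windows from RefSeq, GRCm38.p6, 250 bases before to 50 bases after a start, are shown for the pair that rose, for Col4a4 with the start of Col4a3 inside its window, and for Col3a1 because it changed most. Windows were found for 35 of the 44 genes. Capitals mark matches on either strand to TATAAA (the TATA box), CCAAT (the CCAAT box) and GGGCGG (the GC box), and these matches did not overlap.

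Col4a1, chr8:11312777-11313076, minus strand: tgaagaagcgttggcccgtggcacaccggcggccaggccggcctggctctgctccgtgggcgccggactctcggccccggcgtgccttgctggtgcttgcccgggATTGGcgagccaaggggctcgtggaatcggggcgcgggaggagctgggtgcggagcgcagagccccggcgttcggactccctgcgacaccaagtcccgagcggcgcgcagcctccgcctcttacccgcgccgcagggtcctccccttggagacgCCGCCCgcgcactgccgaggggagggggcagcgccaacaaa

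Col4a2, chr8:11312555-11312854, plus strand: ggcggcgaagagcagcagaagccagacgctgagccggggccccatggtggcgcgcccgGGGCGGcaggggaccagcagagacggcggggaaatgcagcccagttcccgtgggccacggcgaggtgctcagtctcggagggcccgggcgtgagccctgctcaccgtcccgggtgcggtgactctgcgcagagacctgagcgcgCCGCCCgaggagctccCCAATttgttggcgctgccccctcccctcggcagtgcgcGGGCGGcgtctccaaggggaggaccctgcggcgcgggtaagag

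Col4a4, chr1:82586800-82587099, minus strand: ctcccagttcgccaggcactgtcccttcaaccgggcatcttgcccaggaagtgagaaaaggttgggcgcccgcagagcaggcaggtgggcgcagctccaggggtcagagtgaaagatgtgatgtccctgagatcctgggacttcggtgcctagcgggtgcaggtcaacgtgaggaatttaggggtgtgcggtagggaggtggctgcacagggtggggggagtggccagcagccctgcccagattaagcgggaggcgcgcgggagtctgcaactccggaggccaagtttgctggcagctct

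Col3a1, chr1:45311288-45311587, plus strand: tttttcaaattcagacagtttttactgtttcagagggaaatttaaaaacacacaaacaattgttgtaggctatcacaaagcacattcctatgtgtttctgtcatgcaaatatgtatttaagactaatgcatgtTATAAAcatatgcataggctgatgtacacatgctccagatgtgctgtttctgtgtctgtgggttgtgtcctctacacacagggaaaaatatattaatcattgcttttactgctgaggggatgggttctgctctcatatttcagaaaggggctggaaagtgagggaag

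The windows of Col4a1 and Col4a2 share 78 bases, in which each is the reverse complement of the other. That of Col4a1 held 1 CCAAT box and 1 GC box, that of Col4a2 held 1 CCAAT box and 3 GC boxes, and neither had TATAAA. The Col4a4 window held none of these, and the Col3a1 window held TATAAA once. Over the 35 collagen windows TATAAA was found in 5 (14.3%), CCAAT in 12 (34.3%) and GGGCGG in 22 (62.9%), beside 14.2%, 37.9% and 35.9% of all 27025 windows. CACGTG, the E-box bound by MYC and MAX, was in 0 of the 35 windows and in 7.24% of all windows, and TGANTCA, the AP-1 site, was in 1 of the 35, that of Col6a1, and in 7.93% of all. A match or its absence describes these letters in these windows and nothing further.

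Col4a1 was at 37.2, 43.3 and 59.2 FPKM in Ctrl hearts, against 81.8, 76.6 and 60.1 FPKM in cKO. Col4a2 was at 37.8, 42.0 and 53.7 FPKM in Ctrl hearts, against 86.2, 76.5 and 58.4 FPKM in cKO. The groups of both genes were separated by a small gap only, between Ctrl replicate 3 and cKO replicate 3, and the hearts held the same order of level for both genes within each group. Log2 fold changes were 0.65 ± 0.19 for Col4a1 and 0.71 ± 0.18 for Col4a2 (SE, adjusted p = 0.0376 and 0.0225). Of 17 alternatives, 8 lost the call of Col4a1 and 7 that of Col4a2, among them leaving out cKO replicate 2, and the changes stayed positive in all of them. These genes were the highest collagens of the heart by FPKM, and together took 50.1 ± 3.83% of collagen FPKM in Ctrl and 48.9 ± 4.34% in cKO (SD, n = 3), with overlapping groups.

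The chains of Col4a3, Col4a4 and Col4a5 form the second type IV network, known from the glomerulus of the kidney, and Col4a5 also pairs with Col4a6. Col4a5 was at 4.01, 4.17 and 3.77 FPKM in Ctrl hearts, against 7.24, 4.79 and 5.89 FPKM in cKO, without overlap (log2 fold change 0.47 ± 0.13 SE, adjusted p = 0.0315). cKO replicate 2, the heart with Xist, was the lowest of the cKO hearts for this X-linked gene. Col4a4 (chr1:82448423-82586849, minus strand) moved the other way. It was at 0.890, 0.924 and 0.814 FPKM in Ctrl (180, 204 and 209 reads) and at 0.262, 0.412 and 0.378 FPKM in cKO (47, 102 and 101 reads), so that the groups lay far apart. The log2 fold change on the log2(FPKM + 1) scale was -0.48 ± 0.08 (SE, adjusted p = 0.00693), which understates the change of a gene at this level, and the ratio of mean FPKM was 0.400. Col4a4 was called lower in 15 of the 16 alternatives in which it was tested, and missed the threshold without Ctrl replicate 1 and cKO replicate 3 (log2 fold change -0.49, adjusted p = 0.0649, limma).

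Col4a3, the neighbour of Col4a4, was below the filter, at 58, 65 and 70 reads in Ctrl and 21, 47 and 38 reads in cKO. In a fit of the recovered reads over 14667 genes with a mean of at least 10 reads, added after seeing the data, it was lower, at -0.89 ± 0.23 on the log2 scale (SE, adjusted p = 0.0203, limma voom), and so was Col4a4, at -1.28 ± 0.18 (adjusted p = 0.00171). Of the exon bases of Col4a3, 5.65% are shared with C430014B12Rik. Col4a6 was at 47, 10 and 34 reads in Ctrl and 23, 40 and 26 in cKO, with overlapping groups. Among the type IV genes, Col4a1 and Col4a2 were called higher, and Col4a4, which passed the filter through its Ctrl level alone, was called lower. Col4a3, below the filter, was lower in the fit of reads. Col4a5 was called higher without a detectable change of Col4a6 at this depth (log2 fold change 0.19 ± 0.53 SE). No test compared the pairs. In sum the 6 type IV genes were at 80.5, 90.8 and 118.0 FPKM in Ctrl and 175.8, 158.7 and 125.0 FPKM in cKO, a ratio of means of 1.59.

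**Figure D2:**
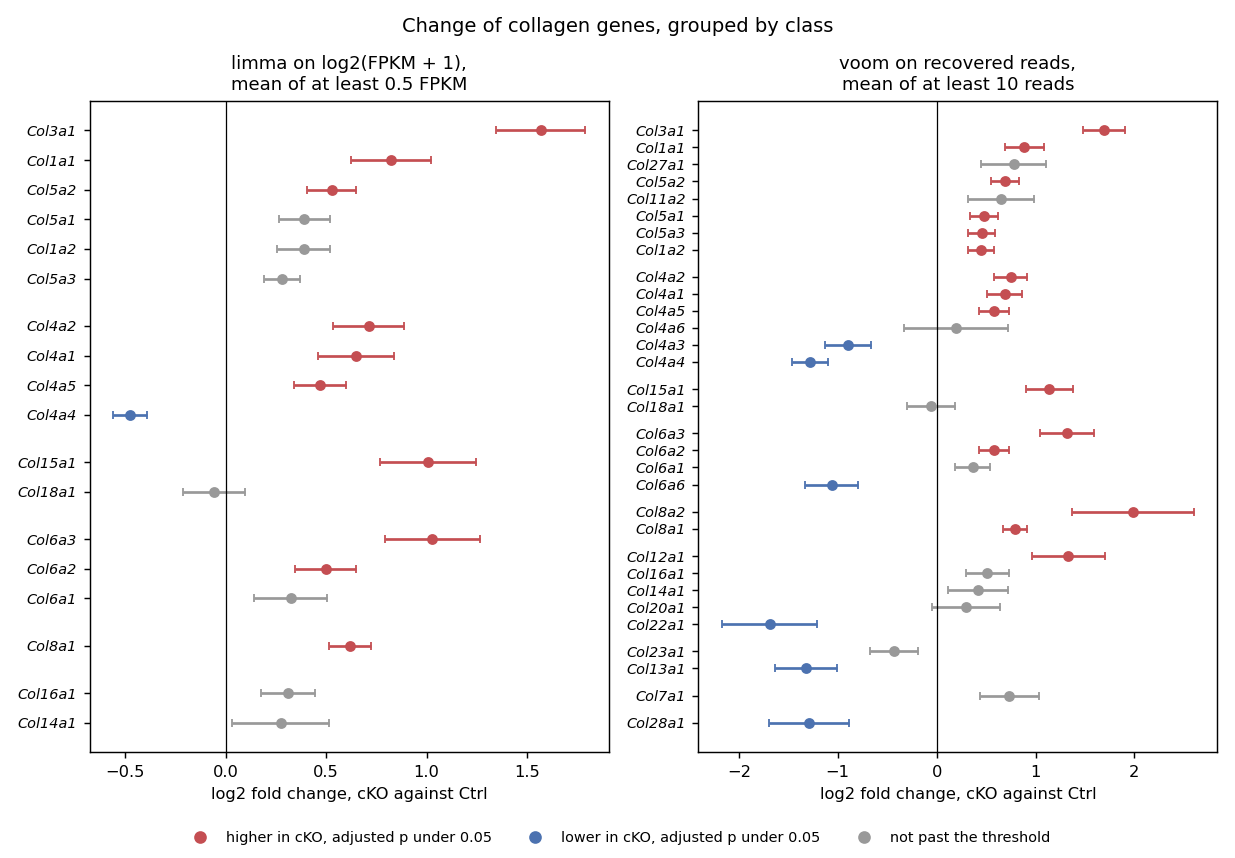
Log2 fold change of cKO against Ctrl with its standard error for collagen genes, from limma on log2(FPKM + 1) at left (18 genes) and from voom on recovered reads at right (31 genes with a mean of at least 10 reads). Gaps separate the classes, which run from fibrillar at the top through type IV, multiplexins, type VI, short-chain, fibril-associated, transmembrane and anchoring-fibril collagens to Col28a1, red and blue mark genes past the threshold, and the blue points at right include Col4a3 and Col4a4.

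Multiplexins join basement membranes to the matrix around them and carry sugar chains. Col15a1 was at 5.20, 6.43 and 6.66 FPKM in Ctrl hearts, against 10.7, 20.2 and 10.6 FPKM in cKO. All cKO hearts were above all Ctrl hearts, and cKO replicate 2 was well above the other cKO hearts (log2 fold change 1.01 ± 0.24 SE, adjusted p = 0.0186). Col18a1, whose end is cut off as endostatin, was not called, with means of 1.49 ± 0.39 FPKM in Ctrl and 1.39 ± 0.36 FPKM in cKO and overlapping hearts (SD, n = 3, log2 fold change -0.06, adjusted p = 0.797 in limma). Its standard error was 0.16, and its sign changed when Ctrl replicate 1, Ctrl replicate 3 or cKO replicate 1 was left out, with values of 0.01, and without Ctrl replicate 1 and cKO replicate 3, with 0.06.

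Type VI collagen forms beaded filaments near the surface of muscle cells and fibroblasts, from chains of Col6a1, Col6a2 and a larger chain, mostly of Col6a3. Col6a3 was at 1.97, 2.48 and 2.76 FPKM in Ctrl hearts, against 5.90, 8.77 and 3.92 FPKM in cKO, with a limma estimate of 1.03 ± 0.24 on the log2 scale (SE, adjusted p = 0.0172). Col6a2 was at 6.86, 6.65 and 7.50 FPKM in Ctrl hearts, against 9.88, 13.2 and 8.33 FPKM in cKO, with a limma estimate of 0.50 ± 0.15 on the log2 scale (SE, adjusted p = 0.0435). Col6a1 was at 13.1, 13.7 and 15.3 FPKM in Ctrl hearts, against 16.1, 24.1 and 14.4 FPKM in cKO, with overlapping groups and no call (log2 fold change 0.32 ± 0.18 SE, adjusted p = 0.211). The ratio of Col6a3 to Col6a1 went from 0.171 ± 0.017 to 0.335 ± 0.053 (SD, n = 3), with no overlap and no test made. Col6a6, an alternative to the large chain, was at 133, 128 and 122 reads in Ctrl and 31, 63 and 98 reads in cKO, and was lower in the fit of reads (log2 fold change -1.06 ± 0.27 SE, adjusted p = 0.0177, limma voom).

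Col8a1, a short-chain collagen of the networks under endothelium and in remodeling vessel walls, was at 3.12, 3.57 and 3.28 FPKM in Ctrl hearts, against 4.92, 6.52 and 5.54 FPKM in cKO. The groups were clearly apart (log2 fold change 0.62 ± 0.10 SE, adjusted p = 0.00571), and the call held in 16 of 17 alternatives, missing the threshold without Ctrl replicate 1 and cKO replicate 3 (log2 fold change 0.59, adjusted p = 0.0601, limma). Col8a2, which encodes its partner chain, had 3, 10 and 7 reads in Ctrl and 15, 55 and 19 reads in cKO, and was higher in the fit of reads, which it entered through its cKO level alone (log2 fold change 1.99 ± 0.61 SE, adjusted p = 0.0387, limma voom). The fibril-associated collagens Col14a1 and Col16a1, which sit on the surface of fibrils, were not called. In limma their adjusted p were 0.422 and 0.122. Col14a1 had means of 2.27 ± 0.66 and 3.03 ± 1.34 FPKM, and Col16a1 of 1.25 ± 0.14 and 1.81 ± 0.47 FPKM, in Ctrl and cKO (SD, n = 3), with overlapping hearts in each.

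Of the 26 genes below the filter, 13 had a mean of at least 10 reads and were covered by the fit of reads, in which 16.4% of all genes were called higher and 15.8% lower. In that fit 31 collagen genes were tested, 15 were higher and 6 were lower. Among the 13 low genes, 2 were higher (Col8a2 and Col12a1), which is near the share of all genes, and 5 were lower (Col4a3, Col6a6, Col13a1, Col22a1 and Col28a1). These counts include Col8a2 and Col22a1, which entered the fit through cKO alone and Ctrl alone, so the minimum of reads favored their calls. Col12a1, a fibril-associated collagen, had 36, 14 and 30 reads in Ctrl and 46, 89 and 59 reads in cKO (log2 fold change 1.33 ± 0.37 SE, adjusted p = 0.0267, limma voom). Col13a1, a transmembrane collagen of cell adhesion sites and neuromuscular junctions, had 34, 37 and 66 reads in Ctrl and 11, 18 and 25 reads in cKO (log2 fold change -1.32 ± 0.31 SE, adjusted p = 0.0140, limma voom). In both genes the cKO reads lay wholly on one side of the Ctrl reads. Col22a1, found at junctions of muscle with matrix, had 17, 26 and 21 reads against 8, 3 and 10 reads and entered the fit through its Ctrl level alone, and Col28a1 had 27, 56 and 33 reads against 13, 11 and 22 reads. Col7a1 of anchoring fibrils, the transmembrane Col23a1, the fibril-associated Col20a1, the fibrillar Col27a1 and Col11a2, and Col4a6 were not called. The remaining 13 genes, Col2a1, Col6a4, Col6a5, Col9a1, Col9a2, Col9a3, Col10a1, Col11a1, Col17a1, Col19a1, Col24a1, Col25a1 and Col26a1, had a mean of under 10 reads and at most 0.109 FPKM. They were tested only in the limma fit with no filter on low values, in which 0 of the 13 passed the threshold or an unadjusted p of 0.05 at this depth. Col11a1, a minor fibrillar chain, had 0, 0 and 4 reads in Ctrl and 12, 10 and 5 reads in cKO, and Col17a1, of hemidesmosomes, had 3, 3 and 5 reads against 2, 2 and 1 reads, both without overlap. Several of them, such as Col2a1 and Col10a1, are cartilage collagens, and Col9a1 and Col6a4 had 0 reads in each Ctrl heart and 1 read in cKO replicate 2.

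Sums over the classes and their shares of all collagen FPKM are given as a description. Fibrillar genes summed to 42.9, 38.5 and 48.7 FPKM in Ctrl and 88.7, 104.0 and 63.0 FPKM in cKO, a ratio of means of 1.97, beside 1.59 for type IV genes and 1.46 for type VI genes. The share of collagen FPKM from fibrillar genes was 26.4%, 22.8% and 23.2% in Ctrl and 27.8%, 30.0% and 26.5% in cKO, so the groups lay next to each other without overlap. Col3a1 alone went from 5.25 ± 0.39% to 10.1 ± 1.42% of collagen FPKM (SD, n = 3). Its ratio of mean FPKM was 3.28, and Col1a1, Col5a2, Col5a1, Col5a3 and Col1a2 had ratios of 1.84, 1.59, 1.39, 1.36 and 1.35. Col4a1 and Col4a2 had ratios of 1.56 and 1.66. The ratio of the fibrillar sum thus includes the large change of Col3a1, and no difference between classes was tested. The transmembrane genes, at low levels throughout, summed to 0.985 ± 0.090 FPKM in Ctrl and 0.547 ± 0.117 FPKM in cKO (SD, n = 3). None of these sums was tested.

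Ratios of chains were tested per heart, since a ratio does not depend on the scaling of a library. The ratio of Col3a1 to Col1a1 was 0.619, 0.703 and 0.583 in Ctrl and 1.14, 1.17 and 1.01 in cKO, with every cKO heart above every Ctrl heart. On the log2 scale the difference was 0.80, with an exact permutation p of 0.1 (two-sided, adjusted p = 0.15 over 3 ratios), which is the smallest p that 3 against 3 hearts allow. The ratio of Col1a2 to Col1a1, chains of the same molecule, was 0.665, 0.682 and 0.584 in Ctrl and 0.467, 0.433 and 0.523 in cKO, lower in every cKO heart (log2 difference -0.44, exact permutation p = 0.1, adjusted p = 0.15). The ratio of Col4a2 to Col4a1 was 1.01, 0.970 and 0.906 in Ctrl and 1.05, 0.998 and 0.972 in cKO, with overlapping groups (log2 difference 0.06, exact permutation p = 0.4). All 6 ratios of the type IV pair lay between 0.906 and 1.05, and the 6 ratios of Col3a1 to Col1a1 between 0.583 and 1.17.

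**Figure D3:**
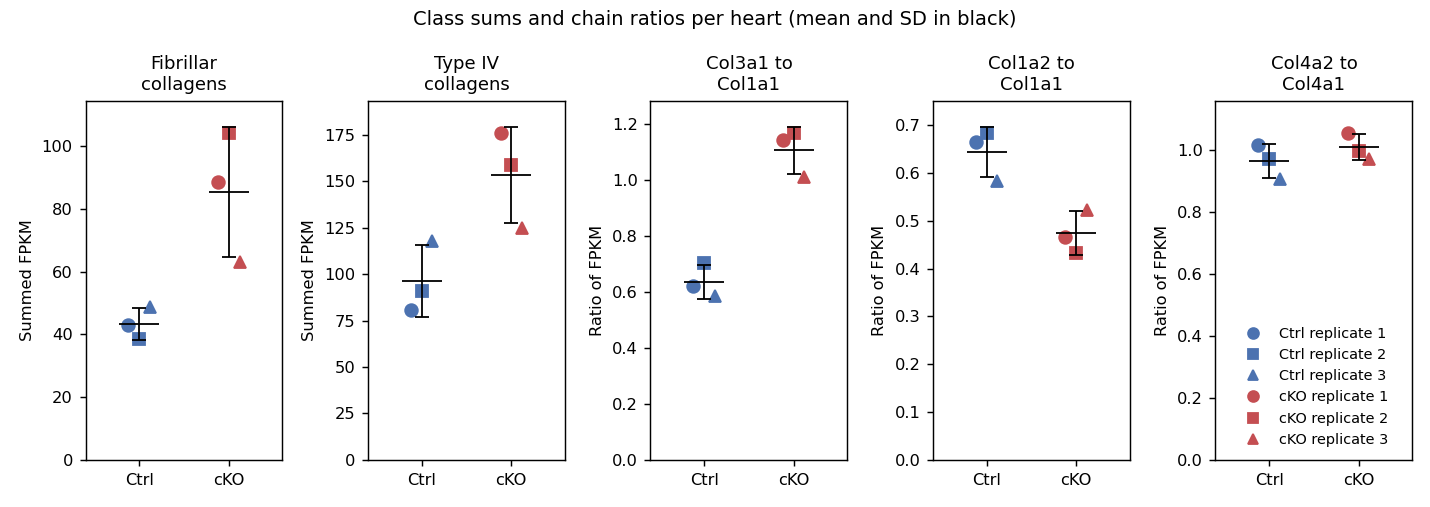
Summed FPKM of the 11 fibrillar and the 6 type IV genes, and 3 ratios of FPKM between chains, for each heart (Ctrl blue, cKO red), with the mean and SD of 3 hearts in black and every vertical axis starting at 0. On the deposited FPKM scale the ratio of Col3a1 to Col1a1 is above 1 in each cKO heart and at most 0.703 in Ctrl. The ratio of Col4a2 to Col4a1 stays near 1 in both groups.

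The order of levels depends on the length used. FPKM divides by the summed length of all annotated exons, which for Col1a2 is 12426 bases, 2.32 times its longest coding transcript of 5348 bases, and for Col3a1 is 9816 bases, 1.76 times its transcript of 5564 bases. On the deposited scale the order over all hearts was Col4a1, Col4a2, Col1a1, Col3a1, Col6a1 and Col1a2. Per kilobase of longest coding transcript, Col3a1 took rank 3, Col1a2 rank 4 and Col1a1 rank 5. On that scale the means in Ctrl and cKO were 16.6 and 54.6 for Col3a1, 22.2 and 30.0 for Col1a2, and 16.6 and 30.6 for Col1a1. For a single gene, ratios of mean FPKM between groups are the same on both scales. The level of a ratio between genes, such as Col3a1 to Col1a1, and class sums and shares change with the length used.

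Hearts of a group differed in level across many collagens together. Among the 18 tested genes, cKO replicate 2 was the highest cKO heart for 15 and the highest of all 6 hearts for 14, and cKO replicate 3 was the lowest cKO heart for 14. Of the Ctrl hearts, replicate 3 was the highest for 11. cKO replicate 3 also held the most Myl7 of the cKO hearts, and cKO replicate 2 was the heart with Xist, and the part of atrial tissue or sex in the collagen levels was not tested. Without cKO replicate 3, 13 collagen genes were called higher, beside 1728 of all 12975 genes tested. Without cKO replicate 2, 8 were, beside 1977 of all 12935.

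Genes that act on collagen were read from 6 lists with 67 tested genes, of which 17 were higher and 15 were lower in cKO, beside 16.3% and 17.0% of all genes. With the markers given further on, 57 genes of the lists were called, of which 39 kept the call without Ctrl replicate 1 and cKO replicate 2, 38 kept it without Ctrl replicate 1 and cKO replicate 3, and all 57 kept their direction in both. Of 18 tested genes for modification and folding of chains, 8 were higher and 3 were lower. Without Ctrl replicate 1 and cKO replicate 2, 1 was higher and 2 were lower, where 10.8% and 11.1% of all genes were called. Without Ctrl replicate 1 and cKO replicate 3, 3 were higher and 1 was lower, where 7.68% and 7.86% were. Leaving out 1 heart left 3 to 5 higher. Colgalt1, P4ha2, P4hb, Plod1 and Ppib lost their calls without each of the pairs. Serpinh1, the chaperone HSP47 that binds the folded triple helix, was at 63.2, 62.7 and 57.5 FPKM in Ctrl hearts, against 173.8, 209.2 and 162.9 FPKM in cKO, without overlap (log2 fold change 1.55 ± 0.11 SE, adjusted p = 0.000443). The prolyl hydroxylases P3h2 and P4ha1 rose by 0.95 and 0.61 on the log2 scale (adjusted p = 0.0087 and 0.0111, limma). Plod2, which hydroxylates lysines for cross-links, was at means of 6.38 and 6.26 FPKM and was not called (adjusted p = 0.897, limma). P3h4, a partner of lysine hydroxylation, fell by 0.60 (adjusted p = 0.00941, limma). Serpinh1 and P3h4 kept their calls without either pair of hearts, whereas P3h2 and P4ha1 lost theirs without Ctrl replicate 1 and cKO replicate 2 (adjusted p = 0.0506 and 0.0551, limma). P4ha3, a prolyl hydroxylase below the filter, had 0, 0 and 4 reads in Ctrl and 19, 26 and 15 reads in cKO, and was higher in the fit of reads, which it entered through its cKO level alone (adjusted p = 0.00347, limma voom).

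Of 10 tested genes for trimming and cross-linking, 4 were higher and 1 was lower. The lysyl oxidase family members Loxl1, Loxl4 and Loxl3 had log2 fold changes of 0.78, 0.73 and 0.46, and Loxl4 passed the filter through its cKO level alone. Lox itself was at 1.76, 1.89 and 3.94 FPKM in Ctrl and 6.05, 2.48 and 3.63 FPKM in cKO, with overlap and no call (log2 fold change 0.51 ± 0.31 SE, adjusted p = 0.248). Of 13 fibril-associated proteins, 2 were higher, Postn and Ctgf with log2 fold changes of 0.82 and 0.80, and 3 were lower, Tnxb, Dcn and Prelp with -0.70, -0.59 and -0.45. These counts lay near the shares of all genes, 16.3% and 17.0%, and are no result about the list. Dcn encodes decorin, a proteoglycan that coats collagen fibrils, and was at 100.6, 98.2 and 112.0 FPKM in Ctrl and 74.7, 55.1 and 77.6 FPKM in cKO, without overlap. It fell by 0.59 on the log2 scale with an adjusted p of 0.0185 in limma, and missed the threshold without Ctrl replicate 1 and cKO replicate 3 (adjusted p = 0.0619). Without Ctrl replicate 1 and cKO replicate 2, Loxl3, Tnxb and Prelp were no longer called. Loxl1, Loxl4, Postn and Ctgf were called without either pair of hearts. With 1 heart left out at a time, Loxl1, Loxl4 and Postn were called each time, but Ctgf only without Ctrl replicate 1 or cKO replicate 1.

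Laminins, nidogens and other proteins listed as basement membrane partners had 12 tested genes, of which 0 were higher and 4 were lower in limma, beside 16.3% and 17.0% of all genes. At an unadjusted p under 0.05 the counts were 0 and 6, and voom on reads gave 0 and 4. The lower genes were Sparcl1, Lama2, which encodes the main laminin chain of muscle, Nid1, which ties laminin to type IV collagen, and Agrn, with log2 fold changes of -0.68, -0.58, -0.46 and -0.27. Sparcl1 was put in this list by choice, and a role beside type IV collagen was not tested. Sparc stood in the fibril-associated list and was not called in limma (log2 fold change 0.36, adjusted p = 0.0576). In the fit of reads Sparc was higher (log2 fold change 0.39, adjusted p = 0.0337, limma voom). The median of the 12 was -0.35 and that of all genes tested -0.02, and the difference from the type IV genes was not tested. Lama2 and Nid1 kept their calls without either pair of hearts. Sparcl1 lost its call without Ctrl replicate 1 and cKO replicate 3, and Agrn lost its call in both. With 1 heart left out at a time, Sparcl1 was called lower each time. Lama2 was then called only without Ctrl replicate 1 or cKO replicate 2, and Nid1 only without Ctrl replicate 1 or cKO replicate 3. Agrn was called only without cKO replicate 2, and Lamc1 was called higher without Ctrl replicate 3. Of 7 tested genes listed as collagen receptors, Ddr1 and Itga11 were higher and Cd36 was lower, beside 16.3% and 17.0% of all genes. Their log2 fold changes were 0.38, 0.33 and -0.60. Cd36 was at means of 531.1 FPKM in Ctrl and 352.3 FPKM in cKO, and a bearing of its fall on collagen was not tested. Of 7 tested proteases and inhibitors, Timp1, an inhibitor of matrix metalloproteinases, was higher, at 10.1, 4.82 and 7.91 FPKM in Ctrl and 92.7, 40.7 and 43.2 FPKM in cKO (log2 fold change 2.74 ± 0.36 SE, adjusted p = 0.00272). The related inhibitors Timp4, Timp3 and Timp2 were lower, with log2 fold changes of -1.25, -0.88 and -0.56, and the collagenases Mmp8 and Mmp13 did not pass the filter. Timp1, Timp3, Timp4 and Cd36 were called without either pair of hearts, Timp2 was not without Ctrl replicate 1 and cKO replicate 2, Ddr1 was not without Ctrl replicate 1 and cKO replicate 3, and Itga11 was called in neither.

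**Figure D4:**
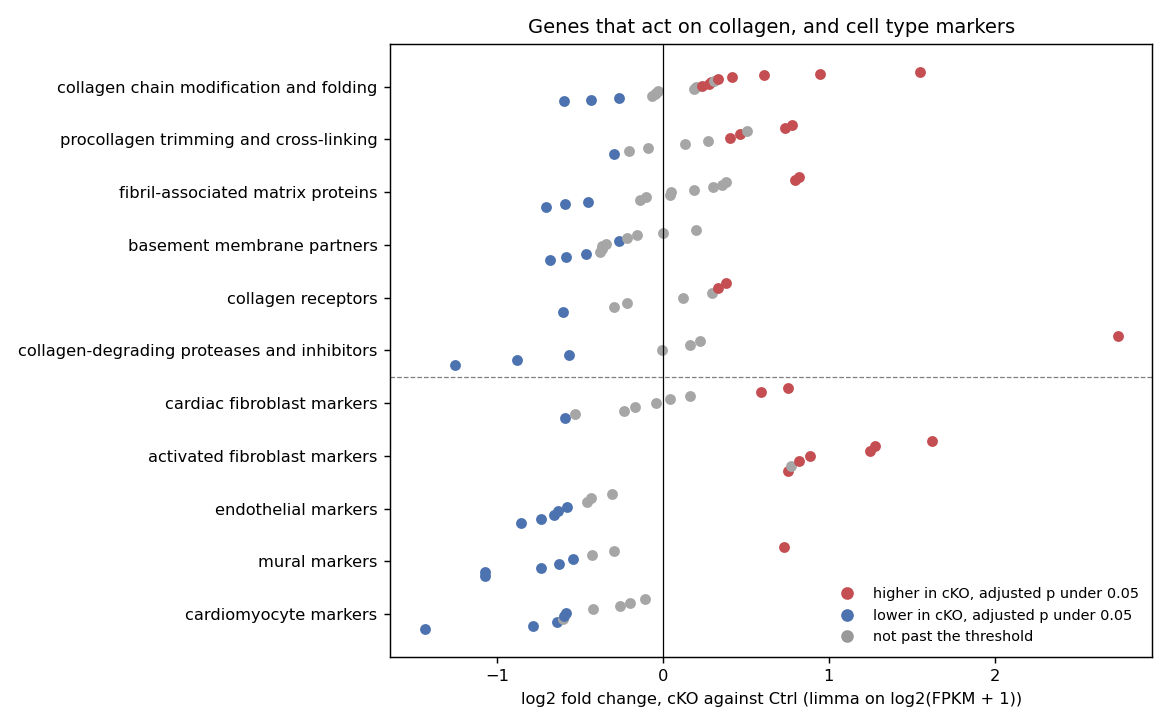
Log2 fold change of cKO against Ctrl, from limma on log2(FPKM + 1), for each tested gene of 6 lists that act on collagen (above the dashed line) and of 5 cell type marker lists (under it), with genes past the threshold in red or blue. With all hearts included, chain modification genes and activated fibroblast markers hold the most red points, with 8 of 18 and 6 of 7. Basement membrane partners and endothelial markers hold none.

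Markers of cell types moved with the collagens in part. Of 7 tested markers of activated fibroblasts, the state that lays down matrix after injury, 6 were higher, beside 16.3% of all genes, and their summed level was 28.0 to 40.3 FPKM in Ctrl and 54.8 to 89.6 FPKM in cKO. Thbs4, Comp and Cilp had log2 fold changes of 1.62, 1.28 and 1.25, and Postn of 0.82. The 6 calls were kept without either pair of hearts. Without Ctrl replicate 2, 3 of the 7 were called (Ltbp2, Postn and Thbs4), where 1438 of 12930 genes were called higher. Without Ctrl replicate 3, 4 were called, with Comp in addition, where 1396 of 12957 genes were. Leaving out cKO replicate 1 lost Acta2 and Cilp, leaving out cKO replicate 2 lost Acta2, and both gained Meox1. Fap, a protease of activated fibroblasts that lay below the filter, went the other way, at 62, 77 and 74 reads in Ctrl and 18, 35 and 47 reads in cKO, and was lower in the fit of reads (log2 fold change -1.13 ± 0.25 SE, adjusted p = 0.0104, limma voom). Cthrc1, also below it, had 7, 0 and 5 reads in Ctrl and 13, 11 and 8 reads in cKO and was not in that fit. Markers of cardiac fibroblasts at large went 2 up (Mfap5 and Medag, log2 fold changes of 0.75 and 0.59) and 1 down (Dcn) of 9, beside 16.3% and 17.0% of all genes, and of these Medag alone was called without either pair of hearts. Their summed level of 701.7 to 731.1 FPKM in Ctrl and 444.7 to 609.7 FPKM in cKO was mostly that of Gsn, at means of 457.5 and 323.1 FPKM, which was not called in limma (adjusted p = 0.0584). Lamc3, below the filter, had 27, 12 and 11 reads in Ctrl and 1, 6 and 5 reads in cKO and was lower in the fit of reads, which it entered through its Ctrl level alone (adjusted p = 0.045, limma voom). Pdgfra, the defining receptor of fibroblasts, was at 4.65, 4.49 and 5.18 FPKM in Ctrl and 4.51, 4.81 and 4.50 FPKM in cKO, with overlap (log2 fold change -0.04 ± 0.08 SE, adjusted p = 0.708). Their part in the collagen levels was not tested.

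Endothelial cells also make type IV collagen, and 5 of 8 endothelial markers were lower, beside 17.0% of all genes, with summed levels of 150.6 to 169.2 FPKM in Ctrl and 96.8 to 114.1 FPKM in cKO. Ptprb, Tie1 and Tek had log2 fold changes of -0.85, -0.73 and -0.66, and Pecam1 of -0.63. By group mean, Col4a1 and Col4a2 were higher in cKO. Summed endothelial markers were at 167.3, 150.6 and 169.2 FPKM in Ctrl replicates 1 to 3 and at 96.8, 114.1 and 106.6 FPKM in cKO. Their relation to Col4a1 and Col4a2 across hearts was not tested. Of 8 mural markers 5 were lower, led by Abcc9, Rgs5 and Kcnj8 with -1.07, -1.07 and -0.74, and Cspg4 was higher. Cardiomyocyte markers had 5 of 10 lower, with Pln, Ryr2 and Tnni3 at -1.43, -0.78 and -0.64. Of 6 macrophage markers, Csf1r was lower and Cx3cr1 was higher, with log2 fold changes of -0.64 and 0.60, and 4 were not called. Cx3cr1 passed the filter through its cKO level alone, with a mean of 0.381 FPKM in Ctrl. These macrophage counts lay near the shares of all genes, 17.0% lower and 16.3% higher, and are no result about the list. Without Ctrl replicate 1 and cKO replicate 2 the markers called lower were 6 endothelial, 6 mural and 8 cardiomyocyte genes, beside 11.1% of all genes. Without Ctrl replicate 1 and cKO replicate 3 they were 5, 3 and 3, beside 7.86% of all genes. In limma no marker of 4 atrial, 4 epicardial, 2 cartilage and 1 Schwann cell genes tested was called, at an unadjusted p under 0.05 the count was 0, and voom on reads called 0, while summed atrial markers ranged from 25.2 to 991.6 FPKM in Ctrl and from 105.8 to 737.2 FPKM in cKO. The part of any of these cell types in the collagen levels was not tested.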

How the data were processed

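Poly-A RNA of 3 Ctrl and 3 cKO hearts was sequenced in 6 libraries. The authors aligned reads with HISAT2 2.0.5 and counted them per gene with featureCounts 1.5.0-p3 per the labels, and the authors deposited FPKM values with a gene length for each gene. Strand use and the handling of reads with several alignments were not stated. The submitters' processing notes name mm9, but 54409 of 54532 gene identifiers are in GENCODE release M21 of GRCm38, 53499 with identical start and end and among them all 44 collagen genes, so positions are given in GRCm38. The read counts behind the FPKM were recovered, and 100% of values were whole within 0.1 read. The library size implied by the FPKM was 0.913 to 0.98 of the summed reads in Ctrl and 1.06 in cKO, so values had been scaled between libraries by the authors. The depth was 15989322 to 24875499 reads per heart.

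Groups came from the sample titles. Collagens, their classes, the 6 pathway lists and the 10 marker lists were chosen with earlier results of these data known. FPKM were tested as log2(FPKM + 1) with limma 3.58.1 in R 4.3.3 (trend, two-sided, Benjamini-Hochberg, threshold 0.05) over 12944 genes that reached 0.5 FPKM on average, after a check on simulated data. Ratios were tested by exact permutation over 20 assignments of the hearts with scipy 1.17.1. All collagen genes are named, with values for the called ones and the 8 highest, and in each list up to 3 called genes with the largest change, beside P4ha1, Plod2, Serpinh1, Lox, Dcn, Postn, Pdgfra, Pecam1 and Myl7. Medag, Prelp, Agrn, Timp2, Csf1r, Cx3cr1, Cspg4, P3h4 and the list members below the filter named in the text were added after their values were seen. Alternatives were a pseudocount of 0.1, no filter, a filter at 1 FPKM, median-of-ratios scaling, scaling without mtDNA-encoded genes, no trend, voom on reads, a replicate block, and leaving out hearts.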

Additional observations from a re-analysis of the deposited data

How the results depend on the processing

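The count of collagen genes called higher, 10, was 3 with no filter, 6 with the replicate block, 4 without Ctrl replicate 1 and cKO replicate 2 (the first pair), 5 without Ctrl replicate 1 and cKO replicate 3 (the second pair), and 2 to 13 when 1 heart was left out. With fewer hearts the test has fewer samples, and with no filter 26855 genes were tested. Of all genes, 1598 were called higher with no filter, 1874 with the replicate block and 1396 to 1977 leaving out 1 heart. The fibrillar count of 3 became 5 with median-of-ratios scaling, 6 with scaling without mtDNA-encoded genes, 6 with voom, 6 with voom over genes with a mean of at least 10 reads, and 1 without the first pair (1 to 6 leaving out 1 heart). The non-fibrillar count of 7 became 1 with no filter, 4 with the block 3 without the first pair and 2 without the second (1 to 7 leaving out 1 heart). Collagen genes called lower, 1, became 3 with no filter, 0 with a filter at 1 FPKM, which left Col4a4 out, 0 without the second pair, and 6 with voom over genes with a mean of at least 10 reads. The list genes called higher, 17, became 11 with the block, 7 without the first pair, 10 without the second and 9 to 15 leaving out 1 heart, and those called lower, 15, became 9 without either pair and 6 to 15 leaving out 1 heart. By heart, the list genes called higher were 9 without Ctrl replicate 1, 10 without Ctrl replicate 2, 11 without Ctrl replicate 3, 10 without cKO replicate 1 and 11 without cKO replicate 2, and those called lower were 9 without Ctrl replicate 2, 6 without Ctrl replicate 3 and 8 without cKO replicate 1. The Col18a1 log2 fold change, -0.06, ranged from -0.199 to 0.0145 leaving out 1 heart, and was 0.0638 without the second pair, 0.0145 without Ctrl replicate 1, 0.00615 without Ctrl replicate 3 and 0.0122 without cKO replicate 1. Of 305 values for single collagen genes, 232 kept their side of the threshold, 51 lost a call, 18 gained one and these 4 changed sign. Scaling without mtDNA-encoded genes moved the split of all calls from 2110 higher and 2205 lower to 2649 and 1621, and the median log2 fold change from -0.02 to 0.05.

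Same-numbered hearts correlated in their deviations at -0.06, 0.17 and -0.01, so the numbers were not taken as pairs. Whether same-numbered hearts were littermates was not stated. With the replicate block the calls of Col1a1, Col4a1, Col4a2 and Col6a2 were lost. Depth limits the 13 collagen genes with a mean of under 10 reads, which were tested only with no filter.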
